A study of Mus musculus with 4 samples.

Results

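The genes of sterol and fatty acid synthesis described here are 34 named genes, of which 23 belong to the sterol branch and 11 to the fatty acid branch. They were chosen by gene symbol, and every probe set whose only symbol in the platform annotation was one of these names was taken, which gave 77 of the 45037 probe sets that were not controls. These probe sets read 33 of the 34 genes, and no probe set was named for Acat2, a thiolase at the head of the sterol branch, in the annotation used here. All 33 genes read were past the filter on dim probe sets, among 13070 genes tested. The arrays held RNA of dorsal skin at postnatal day 16 from 2 bitransgenic mice, which overexpressed deltaNp63alpha, the p63 isoform without the amino-terminal transactivation domain, and from 2 wild type mice. By their labels the arrays are biological replicates, so n = 2 in each group throughout. The labels give neither the promoter nor the second transgene of the bitransgenic mice, and they name no inducing treatment, strain, sex or litter.

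Cells build cholesterol from acetyl-CoA through mevalonate, isoprenoid units, squalene and lanosterol, and a further chain of enzymes turns lanosterol into cholesterol. Fatty acids are built from the same acetyl-CoA by carboxylation and by fatty acid synthase, and are then lengthened, desaturated and activated. Both branches are controlled by the sterol regulatory element binding proteins, membrane-bound transcription factors that the escort protein SCAP carries out of the endoplasmic reticulum when sterols are low, while INSIG proteins hold SCAP back when sterols are plentiful. In skin, keratinocytes make cholesterol and fatty acids for the water barrier, and sebocytes and dermal fat cells make large amounts of lipid.

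Trp63, the gene of the transgene, checked the labels. On one of its 4 probe sets the signal was 10325 and 15246.7 in bitransgenic skin and 205.7 and 837.8 in wild type skin, and on another it was 4644 and 9919.8 in bitransgenic skin and 161.3 and 473.4 in wild type skin. The remaining Trp63 probe sets overlapped between groups. The keratins Krt5, Krt14, Krt1 and Krt10, which define stratified epidermis, read between 3428 and 36168 on every array. Correlations between arrays ran from 0.869 to 0.949, and that of bitransgenic replicate 2 with wild type replicate 2 (0.920) was as high as that of the wild type arrays with each other (0.918). Spike-in signals of Bacillus genes averaged 1598 and 465 on bitransgenic replicates 1 and 2, and 1528 and 328 on wild type replicates 1 and 2. They thus split the arrays by replicate number, with 1 array of each genotype at each level. Xist, the transcript of the inactive X chromosome, was bright on bitransgenic replicate 1 (6195.3) and wild type replicate 2 (5181.9). It was dim on the other arrays. The Y-linked gene Eif2s3y went the other way, at 16 and 1211.5 in bitransgenic skin and 1922 and 22.5 in wild type skin. Each group thus held 1 array of female and 1 of male pattern. For Gapdh the 3' over 5' signal ratio, which grows as RNA breaks down, came to 0.944 and 0.931 on the bitransgenic arrays, against 1.55 and 1.02 on the wild type arrays. That of actin overlapped, at 1.70 and 1.54 on the bitransgenic arrays and 1.66 and 1.53 on the wild type arrays. The part of these array differences in the results below was not tested.

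Every sterol enzyme that was read had a higher mean level in bitransgenic skin than in wild type skin, by 1.497-fold to 3.23-fold. These were 17 of the 18 enzymes listed, and their median log2 difference was 0.82, or 1.77-fold, against 0.0053 for all genes tested. For 16 of the 17, both bitransgenic arrays lay above both wild type arrays, a pattern that 23.9% of all genes tested showed in this direction. A level at least 1.5-fold higher was seen for 16 of the 17 enzymes and for 12.4% of all genes, and a log2 difference above 0 for 17 of the 17 and for 50.5% of all genes. Only the isomerase gene Idi1 and the demethylase gene Cyp51 rose past the threshold of 0.05 on the adjusted p of limma, a linear model fitted across all genes, in which 0.75% of all genes were called higher. Of the 22 sterol genes tested, including those of control and transport, 13 were higher at an unadjusted p under 0.05, against 6.91% of all genes. None of the 22 was lower at that level, against 9.76% of all genes. Differences are log2(signal + 16) in bitransgenic minus wild type skin, with standard errors (SE) and 95% intervals of the moderated fit, and folds are taken from them.

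**Figure D1:**
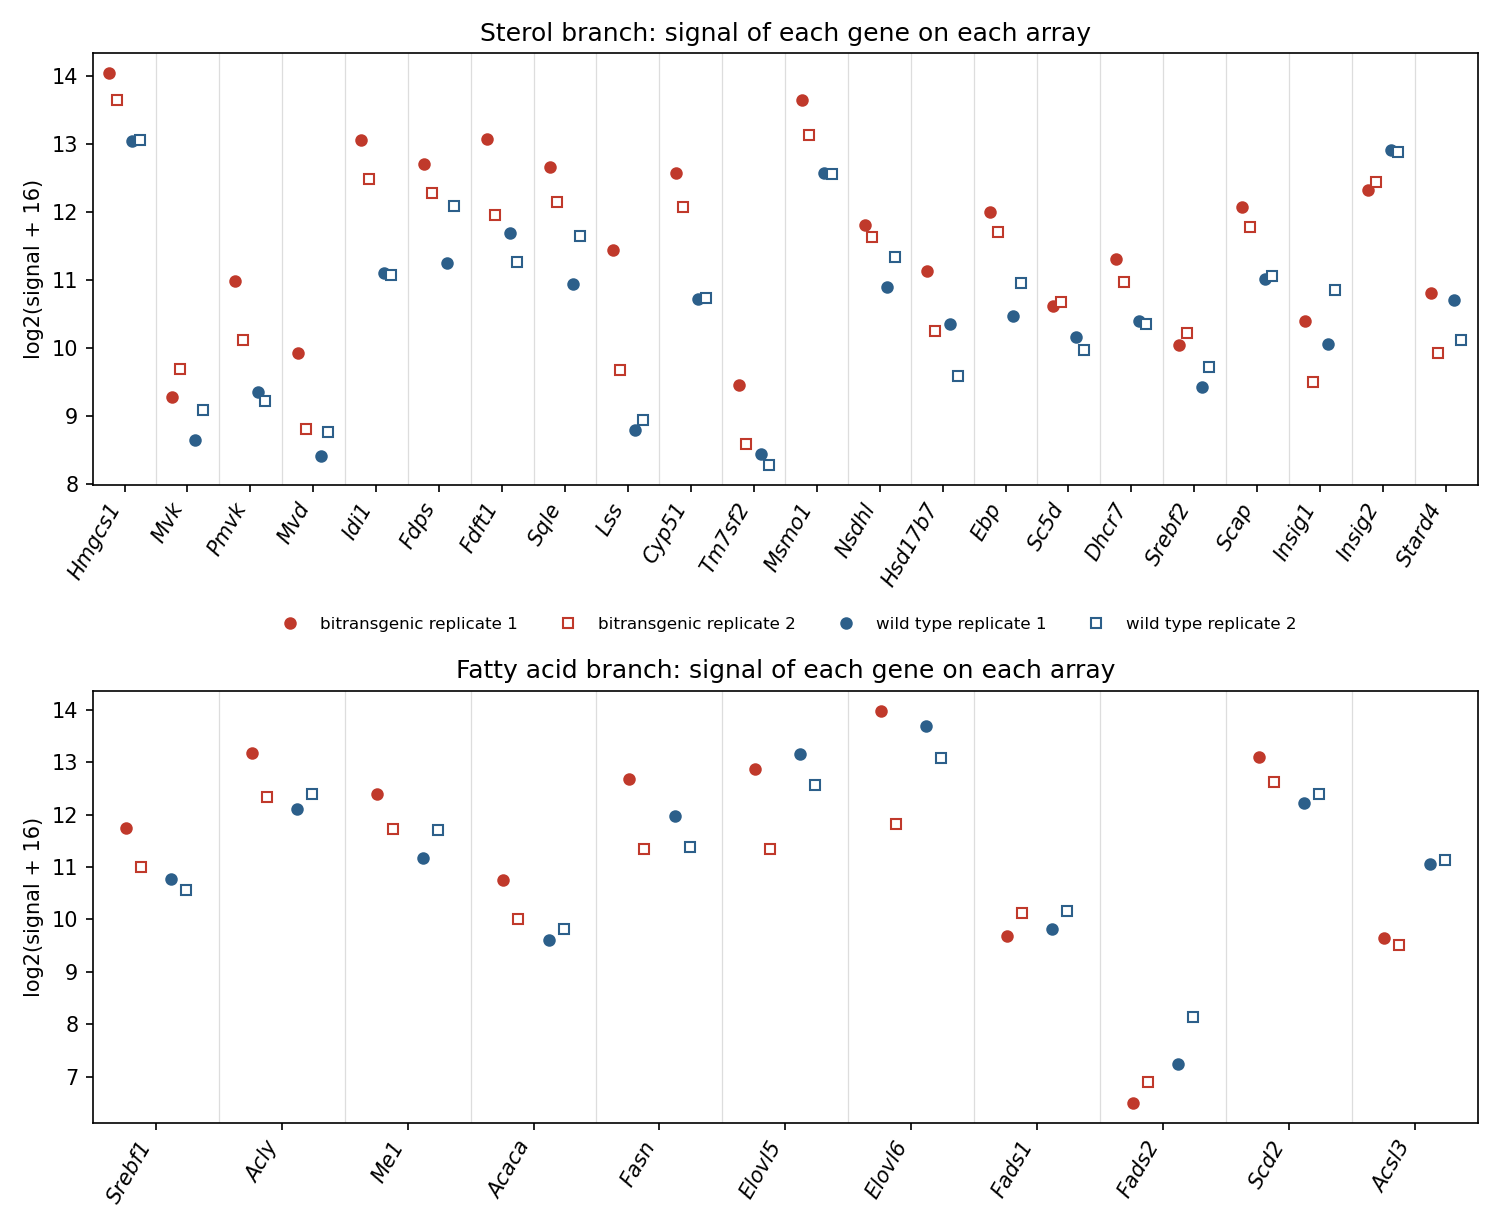
Signal of each member gene on each of the 4 arrays, as log2(signal + 16), for the sterol branch (top) and the fatty acid branch (bottom). Red marks are bitransgenic and blue marks wild type arrays, circles replicate 1 and open squares replicate 2. For 16 of 17 sterol enzymes both red marks lie above both blue marks, while the fatty acid genes are mixed.

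In the mevalonate segment, which makes the isoprenoid units, 6 of 7 listed genes were read. In all 6 both bitransgenic arrays lay above both wild type arrays, as in 23.9% of all genes. Idi1, the isomerase that turns isopentenyl into dimethylallyl diphosphate, had signals of 8569.7 and 5714.0 in bitransgenic skin, against 2185.3 and 2149.7 in wild type skin. Both bitransgenic signals lay far above the nearly equal wild type ones, and the rise was 3.21-fold (log2 difference 1.68 ± 0.27, SE; adjusted p = 0.0358). The second Idi1 probe set had a difference of 1.70. Hmgcs1, the synthase that joins acetoacetyl-CoA to acetyl-CoA, read 16983.9 and 12848.5 in bitransgenic skin, against 8488.7 and 8566.4 in wild type skin. The wild type arrays were nearly equal and both bitransgenic arrays stood above them (log2 difference 0.79 ± 0.25, adjusted p = 0.174). Pmvk, the kinase that adds the second phosphate to mevalonate, read 2006.5 and 1095.8 in bitransgenic skin, against 637.8 and 583.1 in wild type skin. Its difference was 1.26 ± 0.34 (adjusted p = 0.131), with bitransgenic replicate 1 the highest array by far. Mevalonate kinase Mvk, the decarboxylase Mvd and farnesyl diphosphate synthase Fdps had log2 differences of 0.62, 0.78 and 0.82 and did not pass. Between the replicate 1 arrays these genes differed by 0.63, 1.52 and 1.45. Between the replicate 2 arrays they differed by 0.60, 0.043 and 0.19, so Mvd and Fdps were close there.

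The next steps join farnesyl units into squalene and close the sterol ring. Sqle, the epoxidase that is a slow step of the route, read 6460.5 and 4539.0 in bitransgenic skin, against 1942.2 and 3200.9 in wild type skin (log2 difference 1.11 ± 0.33, adjusted p = 0.153). The groups did not overlap, although the wild type arrays differed from each other. Lss, lanosterol synthase, read 2759.2 and 801.2 in bitransgenic skin, against 426.0 and 475.2 in wild type skin. The wild type arrays were alike and bitransgenic replicate 1 stood far above the other 3 arrays, so that the fold of 3.23 came with a wide 95% interval of the log2 difference, 0.36 to 3.02 (adjusted p = 0.192). Fdft1, squalene synthase, read 8585.6 and 3970.2 in bitransgenic skin, against 3289.5 and 2452.6 in wild type skin (1.04 ± 0.40, adjusted p = 0.26). Each of these 3 genes was highest on bitransgenic replicate 1 and second highest on bitransgenic replicate 2. Over all genes, 23.9% had both bitransgenic arrays above both wild type arrays.

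After lanosterol, all 8 genes listed were read and all 8 had higher means in bitransgenic skin. In 7 the groups did not overlap, as in 23.9% of all genes in this direction. Cyp51, the cytochrome P450 that removes a methyl group from lanosterol, had signals of 6115.9 and 4288.2 in bitransgenic skin, against 1667.7 and 1692.2 in wild type skin. The wild type arrays were nearly equal, and the rise was 3.03-fold (log2 difference 1.60 ± 0.26, adjusted p = 0.0371). Ebp, the sterol isomerase also known as emopamil binding protein, read 4099.3 and 3314.6 in bitransgenic skin, against 1400.9 and 1969.5 in wild type skin (1.14 ± 0.27, adjusted p = 0.0997). Msmo1, which oxidises a methyl group of the sterol ring, read 12821.1 and 8968.0 in bitransgenic skin, against 6059.8 and 6045.7 in wild type skin (0.82 ± 0.26, adjusted p = 0.179). Dhcr7, the reductase of the last step to cholesterol, read 2522.0 and 1991.3 in bitransgenic skin, against 1327.6 and 1291.3 in wild type skin (0.77 ± 0.25, adjusted p = 0.186). In all 4 genes both bitransgenic arrays were above both wild type arrays. Tm7sf2, Nsdhl, Hsd17b7 and Sc5d, the remaining reductases, dehydrogenase and desaturase of this stretch, had log2 differences between 0.58 and 0.73 and did not pass. Hsd17b7 was singled out after its values were seen. It was the only sterol enzyme whose groups overlapped on the probe set that stood for the gene. That probe set read 2239.1 and 1203.6 in bitransgenic skin, against 1291.3 and 751.5 in wild type skin. Another read 974.5 and 700.1 in bitransgenic skin, against 453.5 and 533.9 in wild type skin. A further one read 470.5 and 383.8, against 145.9 and 303.2. On these the groups did not overlap, while on the dimmest, with a difference of 0.20, they did.

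**Figure D2:**
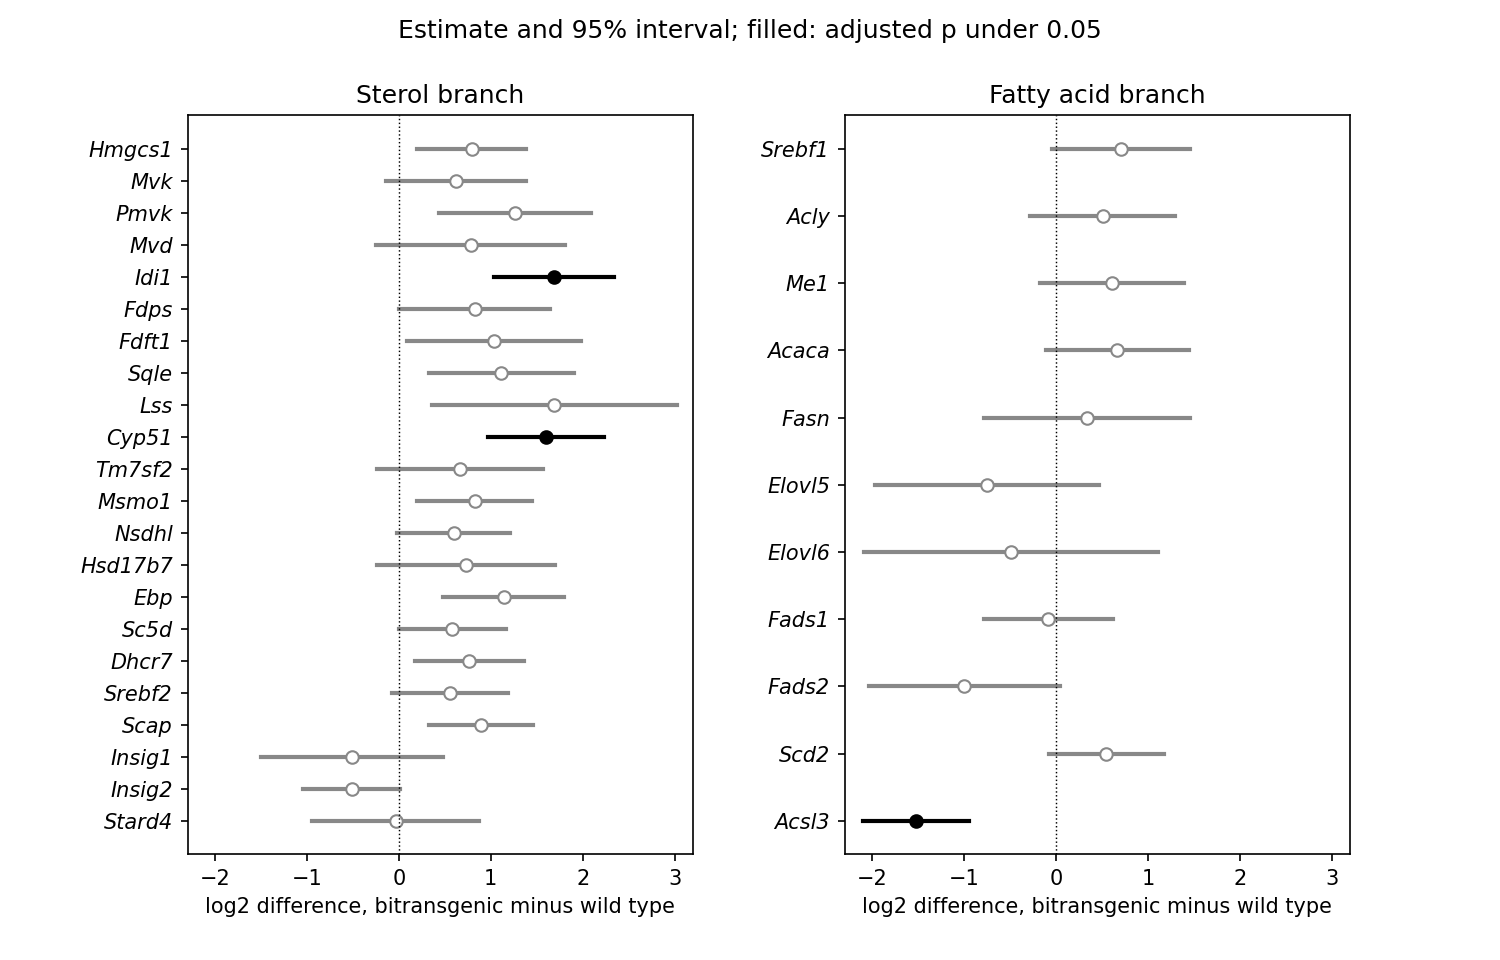
Log2 difference, bitransgenic minus wild type, with its 95% interval for each member gene in pathway order. Filled black points passed the threshold, which were Idi1 (1.68) and Cyp51 (1.60) in the sterol branch and Acsl3 (-1.52) in the fatty acid branch, and open grey points did not.

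The calls of Idi1 and Cyp51 needed both bitransgenic arrays. Without bitransgenic replicate 1 the log2 difference of Idi1 was 1.39 (adjusted p = 0.2) and that of Cyp51 1.34 (adjusted p = 0.226), and without bitransgenic replicate 2 they were 1.98 (adjusted p = 0.0578) and 1.85 (adjusted p = 0.0754). With 1 array left out, the range of the adjusted p was 0.0272 to 0.2 for Idi1 and 0.0266 to 0.226 for Cyp51, and all 17 enzymes had a difference above 0 whichever array was left out. Both calls were also lost with no filter on dim probe sets (adjusted p = 0.0535 each), with the mean of a gene's probe sets (0.0589 for Idi1 and 0.0696 for Cyp51) and with no intensity trend (0.0709 and 0.0716). Bitransgenic replicate 1 was the highest of the 4 arrays for 15 of the 17 enzymes and bitransgenic replicate 2 for the other 2, Mvk and Sc5d. The lowest array was wild type replicate 1 for 9 enzymes and wild type replicate 2 for 8. Between the replicate 1 arrays the median log2 difference of the 17 enzymes was 1.38, and between the replicate 2 arrays, which shared the lower spike-in level, it was 0.62. The bitransgenic array was of female pattern in the first pair and of male pattern in the second, and the wild type array the reverse. The difference was above 0 for 17 of 17 enzymes at each number.

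**Figure D3:**
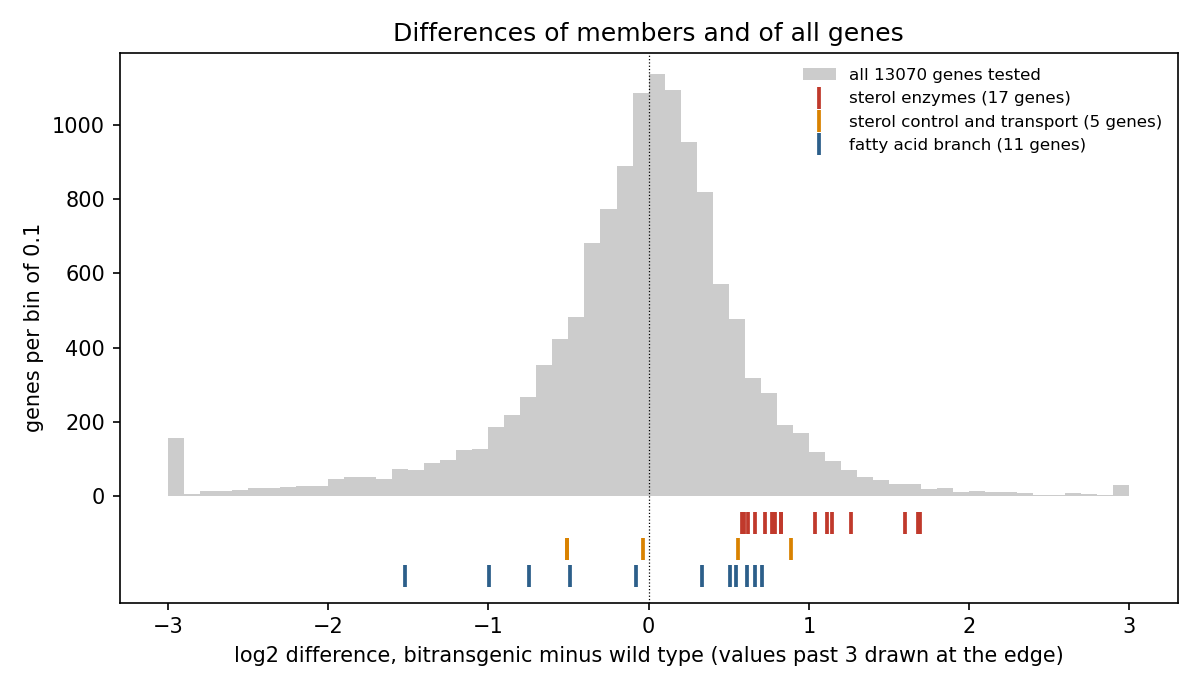
Log2 difference, bitransgenic minus wild type, of all 13070 genes tested (grey histogram, genes per bin of 0.1) and of the members (coloured ticks below it). The 17 sterol enzymes lie between 0.58 and 1.69, to the right of the bulk of all genes, and the fatty acid genes lie on both sides of 0.

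Promoter sequence is shown for Idi1 and Cyp51, the sterol genes called higher, and for Acsl3, the member called lower. It is also shown for Hmgcs1, in which a sterol regulatory element core was found. Each line is the 250 bases before the annotated start of transcription, 5' to 3' on the strand of the gene, from RefSeq on GRCm38.p6. Capitals mark the letters CCAAT or their reverse complement, the box read by the factor NF-Y, and the letters TCACNCCAC, a core of the sterol regulatory element.
Idi1 (chr13:8885356-8885605, plus strand): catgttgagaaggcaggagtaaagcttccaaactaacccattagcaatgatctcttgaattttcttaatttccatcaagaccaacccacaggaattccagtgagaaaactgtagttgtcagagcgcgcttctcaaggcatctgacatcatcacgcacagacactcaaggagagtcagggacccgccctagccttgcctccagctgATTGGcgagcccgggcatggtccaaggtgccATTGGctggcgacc
Cyp51 (chr5:4104698-4104947, minus strand): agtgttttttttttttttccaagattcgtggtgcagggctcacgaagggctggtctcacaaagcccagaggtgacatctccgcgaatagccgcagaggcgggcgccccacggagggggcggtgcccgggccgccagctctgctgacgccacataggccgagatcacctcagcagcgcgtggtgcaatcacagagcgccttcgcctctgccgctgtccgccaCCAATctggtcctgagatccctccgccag
Hmgcs1 (chr13:119690101-119690350, plus strand): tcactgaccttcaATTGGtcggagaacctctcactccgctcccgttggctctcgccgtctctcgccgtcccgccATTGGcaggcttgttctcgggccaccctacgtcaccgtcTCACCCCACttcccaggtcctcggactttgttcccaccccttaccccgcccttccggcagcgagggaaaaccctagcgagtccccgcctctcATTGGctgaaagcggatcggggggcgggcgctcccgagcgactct
Acsl3 (chr1:78657575-78657824, plus strand): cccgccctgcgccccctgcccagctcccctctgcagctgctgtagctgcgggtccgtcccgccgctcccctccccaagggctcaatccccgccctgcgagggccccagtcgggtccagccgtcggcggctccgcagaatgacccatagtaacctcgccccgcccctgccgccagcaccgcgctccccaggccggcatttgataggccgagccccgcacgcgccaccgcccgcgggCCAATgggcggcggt

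A promoter was given for 28 of the 34 genes, and all were searched for 4 motifs on both strands, counting a gene once where it had several starts. CCAAT was found in 14 of 15 sterol enzyme promoters (93.3%), 5 of 9 fatty acid promoters (55.6%), and 39.8% of the promoters of 10511 genes tested on the arrays. The core TCACNCCAC was found in Hmgcs1 alone among the members, from 137 to 129 bases before the start, and in 1.28% of the promoters of the genes tested. The GC box GGGCGG was found in 14 of 15 sterol enzyme promoters (93.3%), 5 of 9 fatty acid promoters (55.6%) and 61.7% of those of the genes tested. The E-box CACGTG was found in 3 of 15 sterol enzyme promoters (20%), 1 of 9 fatty acid promoters (11.1%) and 9.61% of those of the genes tested. None of the 4 motifs contains another. Idi1, whose level rose, and Acsl3, whose level fell, both held a CCAAT and a GC box in this window. A match of letters is a description of the sequence and does not show that a factor binds.

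Of the 5 genes of sterol control and transport, 2 had positive and 3 negative differences, and none passed. Srebf2, which codes for the regulatory factor most tied to sterol genes, read 1041.0 and 1173.3 in bitransgenic skin, against 674.3 and 824.6 in wild type skin (log2 difference 0.56 ± 0.26, adjusted p = 0.362). Scap, the escort of that factor, read 4297.6 and 3492.0 in bitransgenic skin, against 2055.3 and 2112.4 in wild type skin (0.89 ± 0.24, adjusted p = 0.124). In both genes the bitransgenic arrays lay above the wild type arrays, as in 23.9% of all genes. Insig1, which holds SCAP back and is itself a known target of the regulatory factors, read 1334.8 and 709.3 in bitransgenic skin, against 1047.9 and 1843.4 in wild type skin. Its groups overlapped and its log2 difference was -0.51 (95% interval -1.50 to 0.48). Insig2, the second INSIG gene, read 5142.4 and 5579.3 in bitransgenic skin, against 7694.6 and 7582.7 in wild type skin. Both bitransgenic signals of Insig2 were below both wild type signals, as were those of 24.9% of all genes, and its difference was -0.51 ± 0.22 (adjusted p = 0.317). All 3 Insig2 probe sets had negative differences, between -0.51 and -0.34. Stard4, a carrier of cholesterol between membranes, overlapped between groups on the probe set that stood for it. Its 3 probe sets ran from -0.15 to 0.49. The probe set with 0.49 was higher and that with -0.15 lower in bitransgenic skin, each without overlap between groups.

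The fatty acid branch was mixed, and no member of it was called higher. Of its 11 genes, 6 had positive and 5 negative differences, and the median was 0.33, with 4 genes higher and 2 lower without overlap between groups, against 23.9% and 24.9% of all genes. Fads2 stands among the negative and lower genes by its brightest probe set, though its probe sets disagreed. At an unadjusted p under 0.05 none was higher and 1 was lower, against 6.91% and 9.76% of all genes. The 1 call was Acsl3, a ligase that joins long-chain fatty acids to coenzyme A on the endoplasmic reticulum and on lipid droplets, where 1.58% of all genes were called lower. Acsl3 read 789.7 and 710.9 in bitransgenic skin, against 2126.4 and 2238.1 in wild type skin. The arrays within each group were close, and the gene fell to a level 2.87-fold lower in bitransgenic skin (log2 difference -1.52 ± 0.24, adjusted p = 0.0337). Its other probe sets had differences of -1.18 and, below the filter, -1.97. The probe set that stood for Acsl3 is of a kind that can read several transcripts, by its suffix _s_at, and without that kind the difference was -1.18 (adjusted p = 0.159). Without bitransgenic replicate 1 or 2 the value was -1.60 (adjusted p = 0.169) or -1.45 (adjusted p = 0.176), with the mean of its probe sets the adjusted p was 0.0638 and with no intensity trend 0.0614, and over all 14 other settings the adjusted p ran from 0.0245 to 0.176.

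Srebf1, which codes for the regulatory factor tied most to fatty acid genes, read 3423.7 and 2024.1 in bitransgenic skin, against 1728.4 and 1493.4 in wild type skin. Both bitransgenic arrays were above both wild type arrays, with a difference of 0.71 ± 0.31 (adjusted p = 0.332). The genes that supply and build the chain had values of 0.51 for citrate lyase Acly, 0.61 for malic enzyme Me1, 0.67 for acetyl-CoA carboxylase Acaca and 0.33 for fatty acid synthase Fasn, and none passed. The median of these 4 was 1.10 between the replicate 1 arrays and -0.018 between the replicate 2 arrays. Fasn, singled out after its values were seen, read 6581.0 and 2569.8 in bitransgenic skin, against 4019.5 and 2645.8 in wild type skin. Its bitransgenic arrays were thus the highest and the lowest of the 4.

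Of the 6 genes that lengthen, desaturate and activate fatty acids, Acsl3 alone passed. The elongase genes Elovl5 and Elovl6, singled out after their values were seen, split the bitransgenic arrays. Elovl6, which extends palmitate, read 16223.4 and 3584.1 in bitransgenic skin, against 13306.4 and 8614.1 in wild type skin. Elovl5, which extends polyunsaturated chains, read 7516.8 and 2572.7 in bitransgenic skin, against 9081.0 and 6037.9 in wild type skin. In both, bitransgenic replicate 2 was the lowest array and the groups overlapped, and without it the difference was 0.60 in place of -0.49 for Elovl6 and 0.022 in place of -0.75 for Elovl5. Scd2, a stearoyl-CoA desaturase, had 3 probe sets with differences between 0.55 and 1.26. The probe set with 0.92 overlapped between groups. It read 1828.3 and 1946.6 in bitransgenic skin, against 464.7 and 2100.8 in wild type skin. The desaturase Fads1 had a difference of -0.081 (95% interval -0.78 to 0.62). Probe sets of the desaturase Fads2 disagreed in sign. The brightest read 73.8 and 102.8 in bitransgenic skin, against 134.9 and 265.3 in wild type skin. Another read 141.2 and 120.9 in bitransgenic skin, against 22.5 and 119.0 in wild type skin. The last, below the filter, was lower in bitransgenic skin, at 23.5 and 5.1 against 57.1 and 90.1. No direction is given for Fads2, which was singled out after its values were seen.

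**Figure D4:**
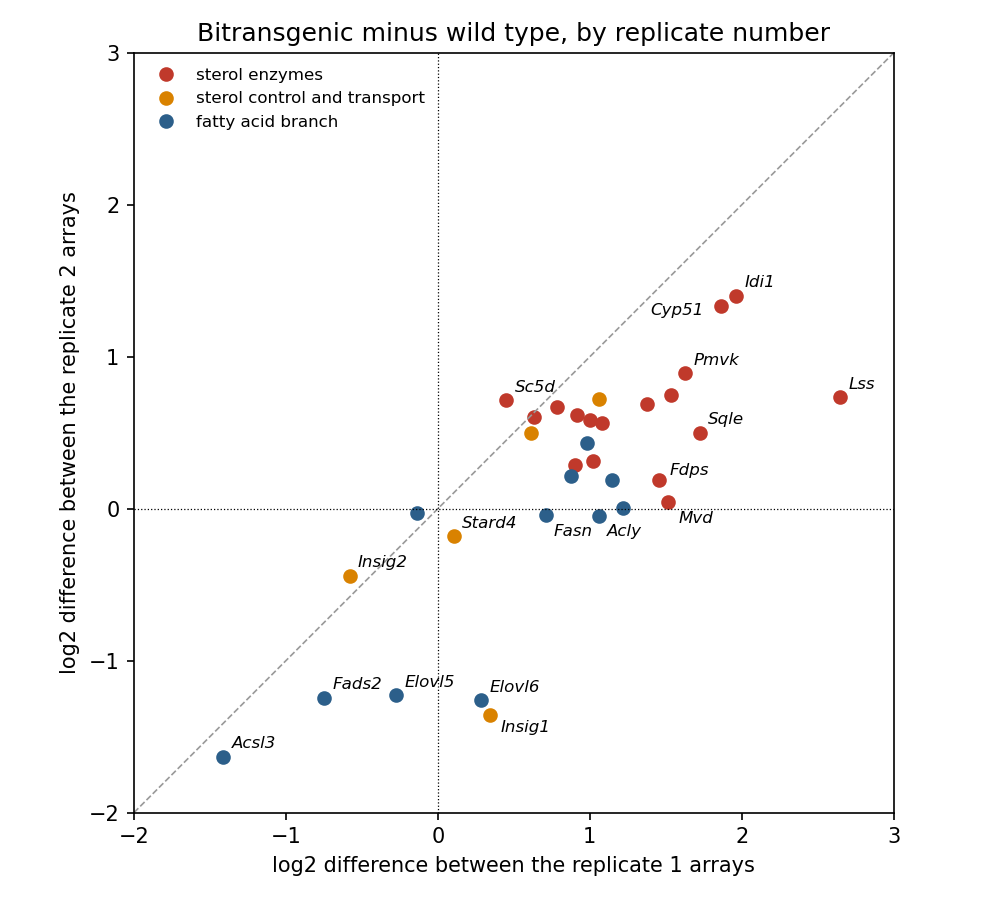
Log2 difference, bitransgenic minus wild type, between the replicate 1 arrays (x axis) and between the replicate 2 arrays (y axis) for each member gene; the dashed line marks equal values. All 17 sterol enzymes (red) lie above 0 on both axes, and 16 of them below the dashed line, and Elovl6 and Insig1 are among the genes whose sign differs between the axes.

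Counting every probe set, 44 of the 49 of the sterol branch and 22 of the 28 of the fatty acid branch were past the filter. Among these, 37 sterol probe sets had positive and 7 negative differences, and 12 and 10 of the fatty acid branch. In a limma fit of all 45037 probe sets none of the 77 was called, with a smallest adjusted p of 0.108, against 0.0444% of all probe sets called higher and 0.129% called lower. At an unadjusted p under 0.05 in that fit, 20 of the 49 sterol probe sets were higher and 0 lower. Of the 28 fatty acid probe sets, 1 was higher and 4 lower, the lower ones all of Acsl3 or Fads2. Over all probe sets the shares were 4.53% higher and 5.44% lower. The 4 Hmgcs1 probe sets that read most strongly had differences between 0.50 and 0.79, and the 3 of Cyp51 between 1.16 and 1.60. The second Lss probe set past the filter gave 0.86 where the first gave 1.69, and the second of Srebf2 gave 1.01 where the first gave 0.56. The second, dimmer probe set of Scap gave 0.10 with overlapping groups where the first gave 0.89, and their mean gave 0.50. A probe set of Sc5d, with -0.11, was the only one of a sterol enzyme past the filter with a negative difference.

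**Figure D5:**
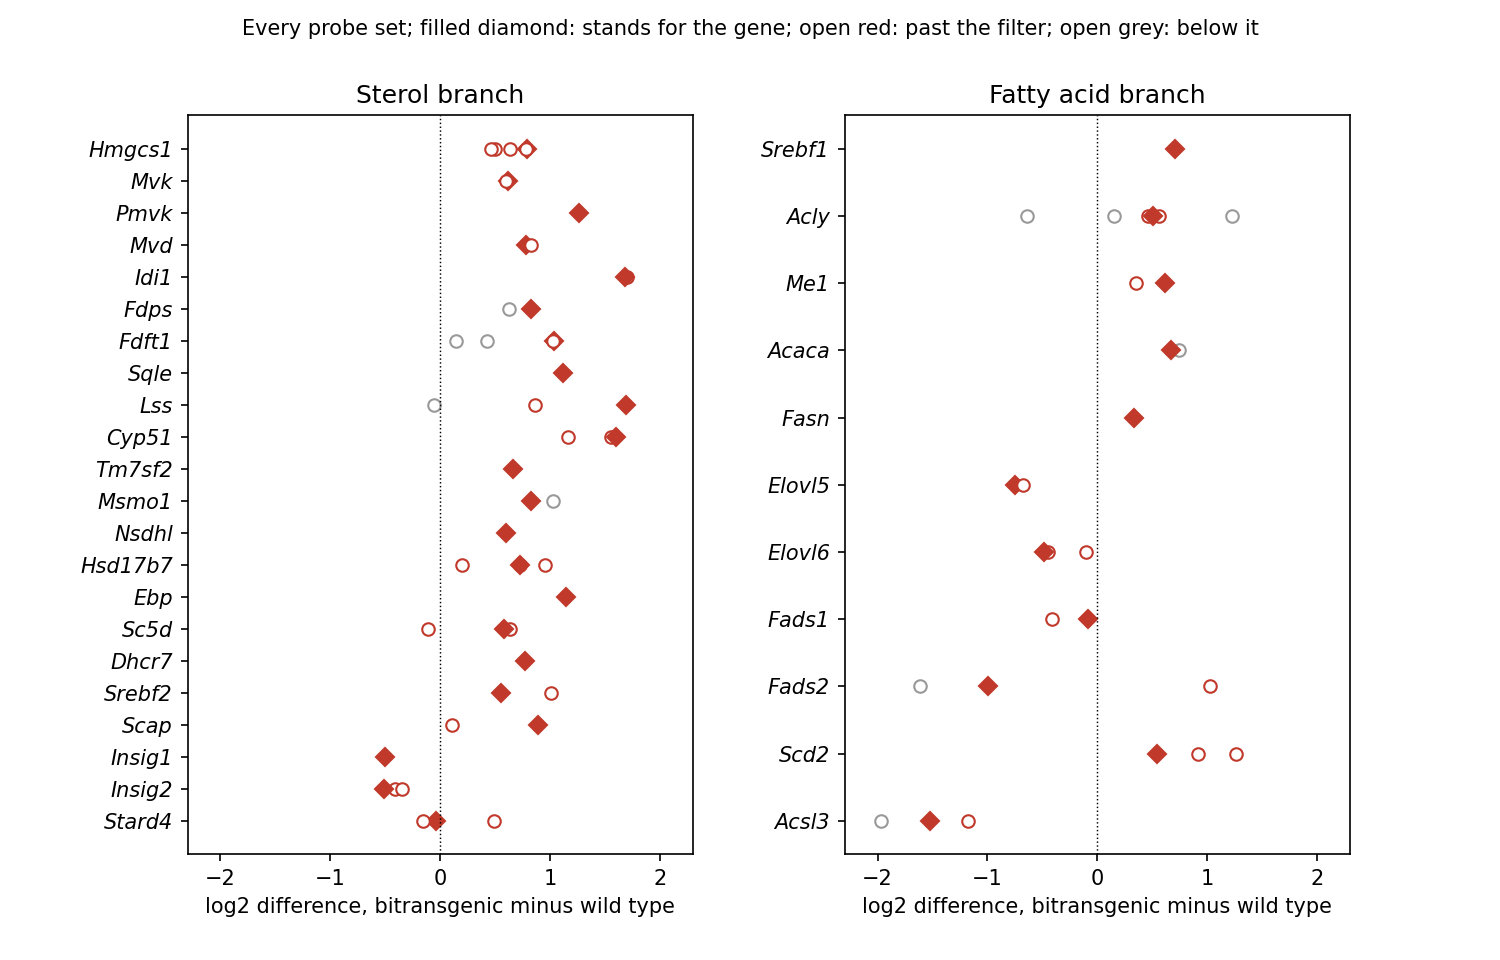
Log2 difference, bitransgenic minus wild type, of each of the 77 probe sets by gene. Filled diamonds stand for the gene in the gene fit, open red circles are other probe sets past the filter and open grey circles lie below it. Of the sterol probe sets past the filter, 37 of 44 lie right of 0.

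Other genes of the pathway came from 2 further lists. None of 13 genes tested of 22 listed for further sterol synthesis and sterol handling passed limma's threshold, and the median was -0.19. At an unadjusted p under 0.05, 2 were lower and 0 higher, against 9.76% and 6.91% of all genes. Abca1, which exports cholesterol from cells, read 6492.9 and 4628.3 in bitransgenic skin, against 10722.0 and 8373.5 in wild type skin (log2 difference -0.79, adjusted p = 0.219). Abcg1, a second exporter, read 724.3 and 723.2 in bitransgenic skin, against 1096.2 and 1196.8 in wild type skin (-0.65, adjusted p = 0.259). Npc1, which moves cholesterol out of lysosomes, had a difference of -0.54 (adjusted p = 0.365). These 3 had the smallest p of the list. Over the 13 genes, 6 were lower and 3 higher without overlap between groups, against 24.9% and 23.9% of all genes. None of 23 genes tested of 24 listed for other fatty acid and glyceride synthesis passed, and the median was 0.26. At an unadjusted p under 0.05, 2 were higher and 1 lower, against 6.91% and 9.76% of all genes. Without overlap between groups, 7 were higher and 2 lower, against 23.9% and 24.9% of all genes. Acsl4, a relative of Acsl3 that prefers polyunsaturated chains, read 2277.2 and 1987.9 in bitransgenic skin, against 1016.0 and 731.2 in wild type skin, the opposite side from Acsl3 (1.29, adjusted p = 0.0749). Thrsp, a lipogenic regulator of fat tissue and liver, had a difference of -2.11 (adjusted p = 0.154), and Hsd17b12, an enzyme of chain elongation, 0.87 (adjusted p = 0.29).

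Markers of several cell types differed between the groups along with these genes. In whole skin, fewer cells of a type and less RNA per cell cannot be told apart. Of 11 dermal fat markers tested of 13 listed, none passed. All 11 were lower without overlap, against 24.9% of all genes. Their summed signals were 47877 to 61796 in bitransgenic skin and 90075 to 107286 in wild type skin. The brightest of them, Fabp4, a fatty acid carrier, read 17391.3 and 23124.3 in bitransgenic skin, against 28413.1 and 36685.9 in wild type skin. Of 12 sebaceous markers tested of 15 listed, none passed, and the sums were 142051 to 156444 in bitransgenic skin and 104808 to 108922 in wild type skin. Single markers were mixed, since 9 were positive, against 50.5% of all genes, and 3 negative (Scd3, Scd1 and Mc5r), and 8 overlapped between groups. The brightest of these was Fabp5, with 31332 and 53465 in bitransgenic skin and 27621.1 and 39343.3 in wild type skin, which overlap. All 11 cell division genes tested had positive differences, as did 50.5% of all genes, and none passed. Their sums were 27922 to 31368 in bitransgenic skin and 12375 to 22673 in wild type skin. Of these genes 7 were higher without overlap, against 23.9% of all genes, and 4 overlapped. Their median difference was 1.49 between the replicate 1 arrays and 0.40 between the replicate 2 arrays. All 7 macrophage markers were positive, against the same 50.5% of all genes, and none passed. Their sums were 21189 to 28767 in bitransgenic skin and 9875 to 16321 in wild type skin. Of these markers 5 were higher without overlap, against 23.9% of all genes, and 2 overlapped. Of 5 Schwann cell markers tested none passed, with sums of 5625 to 8546 in bitransgenic skin and 12832 to 19331 in wild type skin. Single ones differed, since 3 were lower without overlap, against 24.9% of all genes, and 2 overlapped (Cnp and Mag). Of 11 hair shaft keratins tested 9 were called lower, and of 8 muscle markers 6, against 1.58% of all genes. Hair keratin sums were 1557 to 4935 in bitransgenic skin and 67164 to 109287 in wild type skin. Muscle sums were 18305 to 24796 in bitransgenic skin and 89117 to 195149 in wild type skin. For the 17 sterol enzymes the sums were 60103 to 87194 in bitransgenic skin and 35210 to 38334 in wild type skin. Summed keratinocyte markers overlapped between groups, at 95276 to 134343 in bitransgenic skin and 101049 to 102278 in wild type skin. Single ones of these 8 were mixed, and none passed. Without overlap, 2 were higher (Krt1 and Ivl) and 2 lower (Lor and Itgb4), against 23.9% and 24.9% of all genes. The enzymes of epidermal barrier lipids, of which 10 of 11 were tested, had a median of 0.37 with none passing. Their sums were 30114 to 40775 in bitransgenic skin and 22382 to 24956 in wild type skin. Single ones were mixed, since 3 were higher without overlap, against 23.9% of all genes, and 7 overlapped between groups. No marker was at 0 on any array, and the part of these markers in the sterol and fatty acid results was not tested.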

How the data were processed

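Array signals of 4 dorsal skin samples were used as deposited by the authors, as linear intensity values per probe set. MAS5 and affy are named per the submitters' processing notes, with versions and roles not given in the sources used here. The mean of each array with 2% trimmed at each end was 500 in the deposited values, so the arrays had been scaled to one mean. Each value is relative to its array, and depth in reads does not apply: the number of arrays limits the precision.

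Signals were taken as log2(signal + 16). Probe sets with a mean at or above the 40th percentile (signal 57.0) were kept, 27022 in all, and the one with the highest mean stood for each of 13070 genes. The label groups were then set against each other in limma (version 3.58.1, R version 4.3.3; eBayes with an intensity trend, Benjamini-Hochberg adjustment over all genes, threshold 0.05). Residual degrees of freedom were 2 and prior ones 4.45, and the procedure was tested on simulated data. Every probe set was also fitted by itself among all 45037. GEO's annotation of the platform gave a single symbol to 34945 probe sets, several to 932 and none to 9160. Of the single ones, 34741 matched RefSeq, which changed 0 symbols. The members, lists and rules were chosen with earlier results of these data known. The rule for naming gave array values for members past the threshold, the 12 with the smallest p and the 5 control genes, and the 3 further pathway genes of each list with the smallest p; others are marked. Another 14 settings were tried. The median over the 17 sterol enzymes was added after the data were seen.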

Additional observations from a re-analysis of the deposited data

How the results depend on the processing

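Over all genes 304 were called, and the count was 184 with no filter on dim probe sets, 645 with replicate number as a block, and between 118 and 949 with 1 array left out. The 2 sterol calls, Idi1 and Cyp51, became 0 with no filter, with the mean of a gene's probe sets and with no intensity trend, and ran from 0 to 4 with 1 array left out; the block left 2. The 1 fatty acid call, Acsl3, became 0 with the mean of probe sets, when _x_at and _s_at probe sets were dropped and with no trend, ran from 0 to 1 with 1 array left out, and was 1 with the block. Over all genes the lowest count was without bitransgenic replicate 1 and the highest without wild type replicate 2, and likewise for the sterol branch (0 and 4). The block changed no other call of a member; same-numbered arrays deviated together with a correlation of 0.211 and had like spike-in levels, and the labels do not say what a number marks. With 1 array left out the lone array of a group was assumed to vary like the others. The sterol median ran from 0.61 to 1.06 and that of the sterol enzymes from 0.61 to 1.17, lowest without bitransgenic replicate 1 and highest without bitransgenic replicate 2. The fatty acid median ran from 0.089 (without wild type replicate 2; 0.093 without bitransgenic replicate 1) to 0.79 (without bitransgenic replicate 2).

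Some uncalled members turned sign. Fads1 gave 0.011 and Stard4 0.055 with equal array medians, and Fads2 gave 0.014 and Stard4 0.10 with the mean of probe sets. With 1 array left out the values ran from -1.52 to 0.022 for Elovl5, -1.57 to 0.60 for Elovl6, -0.31 to 0.14 for Fads1, -0.34 to 1.01 for Fasn and -0.48 to 0.40 for Stard4. The cause of these changes was not tested.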
